A study of Mus musculus with 3 samples.

Results

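Antisense RNA genes are annotated where a transcript runs on the strand opposite to another gene. The detected ones were described here in RNA bound to chromatin of mouse bone-marrow-derived macrophages, which are macrophages grown in culture from bone marrow of C57BL/6J mice. A gene was taken when the annotation gave it a transcript of type antisense and when it had at least 1 TPM (a length-corrected abundance, scaled to the same total in each library) in each of 3 libraries. Tsix and genes whose symbols start with Snhg, Gas5, Mir or Ptgs2os were left out by rule, which removed 1 gene that passed the level limit. This left 552 of 3084 antisense genes, or 17.9%, against 21.4% of all 55536 annotated genes, 41.1% of protein-coding genes, 37.0% of sense intronic genes and 4.29% of lincRNA genes (long intergenic noncoding RNA). Because the members were selected on TPM, their levels are given as a description.

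The cells had been given lipid A, the membrane anchor of bacterial lipopolysaccharide and a ligand of Tlr4, at 100 ng/ml for 12 h. The agent was then washed out for 12 h and given again at 100 ng/ml for 90 min, and this treatment was shared by all 3 libraries. The labels number them as biological replicates 1, 2 and 3 with 1 µg, 250 ng and 500 ng of starting RNA, and give the same donor entry for each, so whether they come from separate animals or cultures is not known and part of the spread may be technical. Unstimulated cells were not analysed here, so no level below can be read as a response. Replicate 1 had the lowest depth with 12671700 expected counts, replicate 3 had 16915406 and replicate 2 the highest with 21747001. All 10 macrophage markers on the list used, Adgre1 and Csf1r among them, were detected, against 1 of 25 markers of T cells, B cells, neutrophils, fibroblasts and dendritic cells (Cd4, at 1.81 ± 0.206 TPM). Their TPM summed to between 1161 and 1332 for the macrophage markers and to between 4.36 and 4.79 for the others. In such bulk samples, fewer cells with an RNA and less of it per cell cannot be told apart. Counts of the members differed between each pair of libraries by more than sampling noise, with a mean chi-square per gene (about 1 from sampling noise alone) that was lowest, at 5.46, between replicates 2 and 3 and reached 17.7 between replicates 1 and 2.

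Many antisense RNAs are long noncoding RNAs that stay near their site of synthesis, and nascent or unspliced RNA is common in the chromatin fraction. Some act in cis: in mouse, Airn, transcribed from an imprinted promoter inside Igf2r, silences Igf2r on the paternal chromosome. Most of the genes named below carry only a clone or gene model name. The sources used here do not say whether reads were counted by strand. Without strand, reads of an antisense gene and of its partner cannot be told apart where exons lie opposite each other, and reads of unspliced partner RNA can fall on antisense exons inside its introns.

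Each member was paired with a sense gene, by symbol where the symbol names one (Zeb2os with Zeb2), otherwise by the longest overlap on the opposite strand or the nearest start site within 1 kb. A sense gene was found for 540 members, in 538 cases a protein-coding gene, and 504 different sense genes were involved. The exon stretches below show how such pairs meet. They were read 5′ to 3′ on the antisense strand from GENCODE M21 transcripts on mm10, and capitals mark bases that lie opposite an exon of the sense gene. They were chosen because the overlap differs from the whole first exon of Gm28913, opposite the kinase gene Ikbke, to a short end of Gm47009 opposite coding sequence of Irak3. Gm28913 is shown at chr1:131263330-131263394, Gm47009 at chr10:120170288-120170345 and Gm26626 at chr16:92613592-92613704 on the plus strand, and Slfn5os at chr11:82960605-82960681 on the minus strand.
Gm28913: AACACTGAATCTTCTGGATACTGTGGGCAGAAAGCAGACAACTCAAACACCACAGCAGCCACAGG
Gm47009: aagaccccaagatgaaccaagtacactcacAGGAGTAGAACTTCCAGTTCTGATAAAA
Gm26626: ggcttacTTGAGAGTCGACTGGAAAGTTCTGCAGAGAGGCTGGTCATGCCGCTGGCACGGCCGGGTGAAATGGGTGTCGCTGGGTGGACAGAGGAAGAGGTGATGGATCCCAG
Slfn5os: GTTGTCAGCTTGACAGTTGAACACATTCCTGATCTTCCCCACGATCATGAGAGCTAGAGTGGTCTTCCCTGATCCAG
The capitals cover 65 bases opposite Ikbke, of which 20 lie opposite coding sequence, and 28 opposite coding sequence of Irak3, 106 of Runx1 and 77 of Slfn5. Over the whole gene, 17.9% of the exon bases of Gm28913, 4.69% of Gm47009, 13.3% of Gm26626 and 64.4% of Slfn5os lay opposite an exon of any gene.

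Most members were low. The median over members was 5.28, 3.75 and 3.94 TPM in replicates 1, 2 and 3, with a mean of 4.32 ± 0.831 TPM (SD, n = 3). Detected protein-coding genes had a median of 11.0 ± 0.427 TPM, detected lincRNA genes 5.66 ± 1.09 and detected genes of type sense intronic 5.58 ± 1.28. A mean under 5 TPM was seen for 307 members, while 41 reached 20 TPM in each library and 3 reached 100. Together the members held 0.562 ± 0.162% of all TPM, and the 10 highest held 22.9 ± 2.85% of that. The lowest library of a member held 44.0 expected counts in the median and 1 in the lowest case, and 69 members had fewer than 10 in at least 1 library, so their values rest on few reads. Just inside the limit lay Gm15964 with 1.04, 1.34 and 1.02 TPM in replicates 1, 2 and 3, Gm20511 with 2.56, 1.02 and 1.89 TPM and Gm20652 with 1.02, 2.64 and 1.39 TPM. Just outside lay Gm16183 with 1.59, 0.99 and 1.43 TPM, Gm15591 with 2.03, 1.78 and 0.99 TPM and Gm16062 with 1.01, 1.10 and 0.99 TPM. The lowest mean was that of Gm6598, with 1.07, 1.15 and 1.09 TPM, next to Gm15964 and 4921511C10Rik.

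The highest antisense gene was Gm28913, at chromosome 1 from 131263330 to 131266749, with 318, 222 and 217 TPM in replicates 1, 2 and 3. It lies inside Ikbke, the gene of a kinase that acts in antiviral signalling beside Tbk1, which had 1786, 1618 and 1640.2 TPM. Gm28913 was lower than Ikbke in each library, as were 82.8% of members with a sense gene. The antisense minus sense difference of log2(TPM + 1) was -2.75 ± 0.23 (SD, n = 3). Another member inside Ikbke, Gm28914, had 75.4, 54.4 and 73.4 TPM and a log2 difference of -4.63 ± 0.21.

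Gm40578 followed with 182, 139 and 190.3 TPM. Its 3′ part overlaps that of Tnfaip2, a gene known to be induced by tumour necrosis factor, which had 2425, 1319 and 1976 TPM. Gm16094, whose start site faces away from that of the interferon-induced nuclear body gene Sp110, had 305, 78.7 and 100.0 TPM, against 431, 263 and 245 TPM for Sp110. Replicate 1 stood far above the other two libraries for Gm16094 and above them for Sp110. In a further transcript table that the authors deposited, summed by gene, the means were about equal, with 364 TPM for Gm16094 and 363 TPM for Sp110. AC119228.1 had 255, 101 and 92.4 TPM and lies inside Cd274, the gene of the immune checkpoint ligand PD-L1, which had 280.5, 162 and 145 TPM. In each library AC119228.1 was lower than Cd274, with a log2 difference of -0.49 ± 0.30.

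Zeb2os had 134, 60.6 and 71.8 TPM, against 1962, 986 and 1227 TPM for Zeb2, which encodes a transcription factor that maintains the identity of tissue macrophages. Both genes were highest in replicate 1 and lowest in replicate 2, and their log2 difference of -3.98 ± 0.11 varied little. In the further table Zeb2os had a mean of 763 TPM, against 1388 TPM for Zeb2, so its level depends on the table. Gm37787, inside the gene of the surface receptor Slamf7, had 162, 45.5 and 54.5 TPM, against 537, 272 and 331 TPM for Slamf7, and 72.3% of its exon bases lie opposite exons.

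In the gene table, levels near those of the sense gene were found for several members inside introns. 4933423P22Rik had 234, 105 and 128 TPM, against 167, 117 and 129 TPM for the receptor phosphatase gene Ptprj, so that the order of both genes changed between libraries. Gm7480 had 132, 70.0 and 60.0 TPM, against 105, 92.1 and 86.5 TPM for Lrmda. Gm12000 had 103, 42.6 and 59.9 TPM, against 84.3, 51.8 and 71.8 TPM for Ikzf1, which encodes the transcription factor Ikaros. 4933431G14Rik had 95.8, 28.8 and 33.3 TPM, against 49.7, 30.1 and 31.8 TPM for St3gal5, the gene of the enzyme that makes ganglioside GM3. None of these 4 shares an exon base with an opposite exon. In the further transcript table the sense gene lay higher for 3 of them, with 119 TPM for Gm7480 against 239 for Lrmda, 106 for Gm12000 against 195 for Ikzf1 and 72.3 for 4933431G14Rik against 164 for St3gal5. The remaining pair stayed close there, with 149 TPM for 4933423P22Rik against 166 for Ptprj. Gm43221 was above Fam102b in each library, with 134, 43.7 and 56.6 TPM, against 85.7, 36.3 and 52.1 TPM.

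The remaining members of the highest 15 were Zfas1, BE692007 and Gm13556. Zfas1, a host of small nucleolar RNAs that starts opposite the first exon of Znfx1, had 95.1, 73.7 and 88.9 TPM, with no library far from the others. Znfx1, which encodes an RNA helicase of antiviral defence, had 166, 149.8 and 133 TPM. BE692007 had 117, 54.5 and 62.3 TPM, against 214, 144 and 164 TPM for Ms4a6c, and Gm13556 had 68.0, 35.2 and 43.9 TPM, against 373, 227 and 222 TPM for Dennd1a, which encodes an exchange factor for Rab35.

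**Figure D1:**
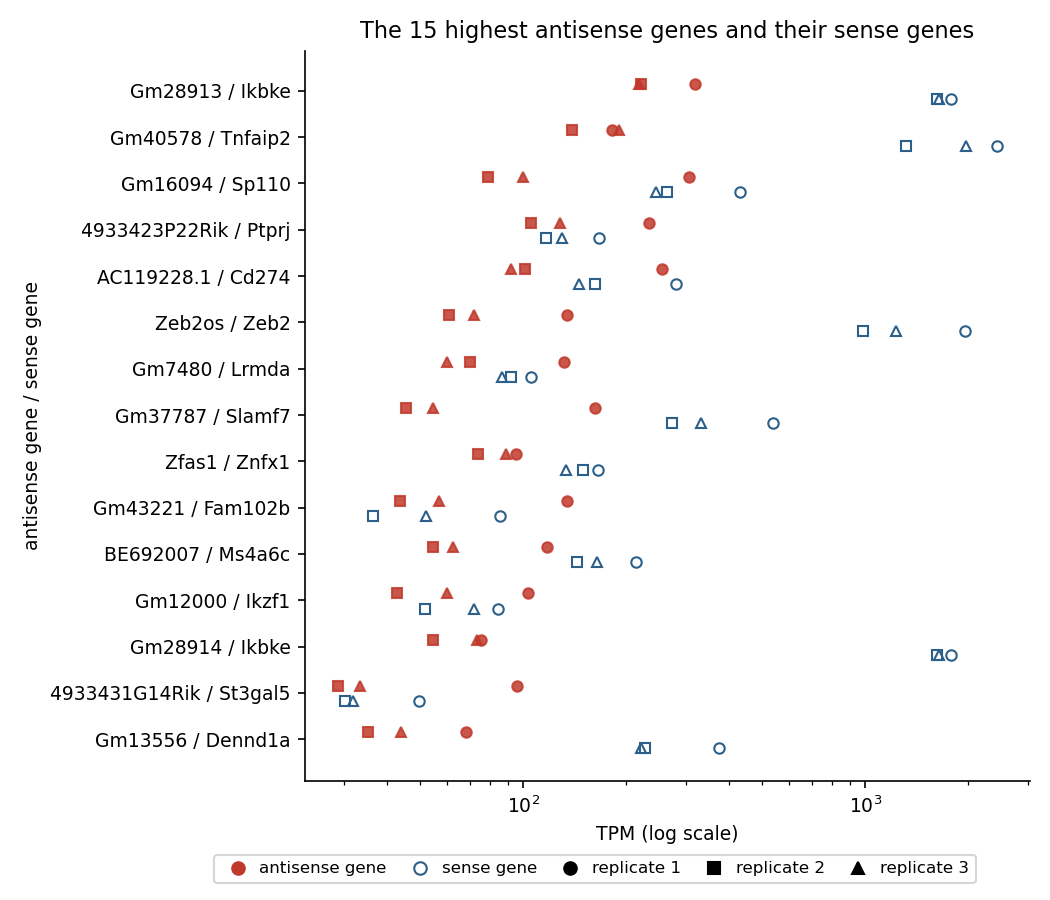
TPM in each library on a log axis for the 15 antisense genes with the highest mean (filled) and, just below, for the sense gene (open), with circles, squares and triangles for replicates 1, 2 and 3. Gm28913 lies at 217 to 318 TPM, far left of Ikbke at 1618 to 1786 TPM, while 4933423P22Rik and Ptprj overlap.

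Members were mostly lower than their sense genes. The median over 540 pairs of the log2 difference was -1.91, -2.14 and -2.10 in replicates 1, 2 and 3, with a mean of -2.05 ± 0.12 (SD, n = 3). The sense gene was higher in each of 3 libraries in 447 pairs, or 82.8%, against 92.6% of 1356 annotated pairs in which either gene was detected. The antisense gene was higher in each library in 56 pairs, or 10.4%, against 4.13% of the same 1356 pairs, and in 37 pairs the order differed between libraries. An antisense gene above a detected partner always passes the level limit itself, so the difference between these shares follows from the rule. With 3 libraries an exact two-sided sign-flip test cannot go below p = 0.25, and no pair was called.

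Of the 56 members above their sense gene, 32 had a sense gene with a mean under 1 TPM. The 5 highest differences were of this kind. Gm27177 had 73.0, 20.7 and 40.5 TPM, against 0.75, 0.31 and 0.54 TPM for Loxl2, which encodes a lysyl oxidase of the extracellular matrix. Of the 2001 exon bases of Gm27177 opposite an exon, only 301 lie opposite Loxl2, and the others lie opposite other genes. In the further transcript table Loxl2 had a mean of 9.76 TPM, against 50.5 TPM for Gm27177. Gm26740 had 12.9, 18.1 and 8.92 TPM, against 0.97, 0.19 and 1.09 TPM for Raet1e, of a ligand family of the receptor NKG2D. 1810032O08Rik had 7.11, 13.4 and 14.4 TPM, against 0.96, 0.73 and 0.79 TPM for the sialyltransferase gene St6galnac2. Etohd2 had 13.1, 6.83 and 5.86 TPM and 9530082P21Rik 7.91, 6.49 and 5.59 TPM, while their partners Gm49354 and Kremen2 were listed at 0 in each library. At the other end, E530011L22Rik had 2.38, 1.58 and 1.60 TPM, against 481, 346 and 365 TPM for Nktr, a gene of a cyclophilin-related protein, and a log2 difference of -7.12 ± 0.04. Gm37305, opposite the cyclin gene Ccnl1, had 3.24, 3.25 and 3.79 TPM against 514, 334 and 329.8 TPM, 4921511C10Rik, inside Rapgef2, had 1.39, 1.10 and 1.10 TPM against 244, 161 and 165 TPM, Gm11131, opposite the class I gene H2-Q4, whose close relatives can share its reads, had 2.31, 2.85 and 1.91 TPM against 249, 266 and 293 TPM, and G630030J09Rik, inside Gramd1a, had 2.52, 1.71 and 1.94 TPM against 154, 287 and 294 TPM.

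Among long noncoding RNAs that are known by name, which were chosen after their values were seen, Tug1 had 45.2, 37.0 and 44.5 TPM, against 17.8, 22.1 and 22.0 TPM for Morc2a at the other side of their shared start region. Airn had 45.8, 33.9 and 33.7 TPM, against 23.9, 30.2 and 24.9 TPM for Igf2r, and was higher in each library, with a log2 difference of 0.50 ± 0.38. In the further transcript table the means were near each other, with 116 TPM for Airn and 111 TPM for Igf2r. Kcnq1ot1, the imprinted RNA inside Kcnq1, had 5.27, 4.97 and 5.15 TPM, against 0.07, 0 and 1.09 TPM for the potassium channel gene Kcnq1. Gt(ROSA)26Sor, the locus used widely for transgenes, had 14.6, 10.5 and 12.5 TPM, against 23.8, 19.6 and 25.1 TPM for Thumpd3.

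The position relative to the sense gene was taken from the annotation. 337 members, or 61.1%, lie inside the sense gene, 103 overlap it at the 3′ ends, 81 at the 5′ ends, 14 span it, 4 start within 1 kb of it without overlap and point away, 1 points towards it without overlap and 12 have no opposite gene within 1 kb. Of all 3084 antisense genes, 53.5% lie inside, 21.8% overlap head to head and 14.4% tail to tail. The detected share was 23.1% of tail-to-tail, 20.4% of inside, 12.1% of head-to-head and 4.94% of divergent genes. In the 3 large classes the median differences to the sense gene were -2.10 ± 0.14 inside, -1.95 ± 0.08 tail to tail and -2.35 ± 0.08 head to head on the log2 scale (SD, n = 3).

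Across genes, antisense and sense levels went together in part. Spearman's rho between mean TPM values was 0.468 over 337 members inside a sense gene, 0.515 over 103 tail-to-tail pairs and 0.196 over 81 head-to-head pairs. The points share libraries and depth, genes are not independent replicates, and the difference between classes was not tested. Inside a sense gene, rho was 0.533 for 174 members with an exon base opposite an exon and 0.427 for 163 without. All these values cover members only, and the limit of 1 TPM on the antisense side restricts them. Over all 819 antisense genes inside a sense gene without such a base, detected or not, rho was 0.764. Of these, 472 had a sense gene under 1 TPM, and their median antisense level was 0. Within bins of the sense level rho was lower. It was 0.455 under 1 TPM, 0.279 at 1 to 10, 0.342 at 10 to 100 and -0.306 over 29 genes at 100 TPM or more. Over 312 sense intronic genes, rho with the gene around them was 0.700.

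**Figure D2:**
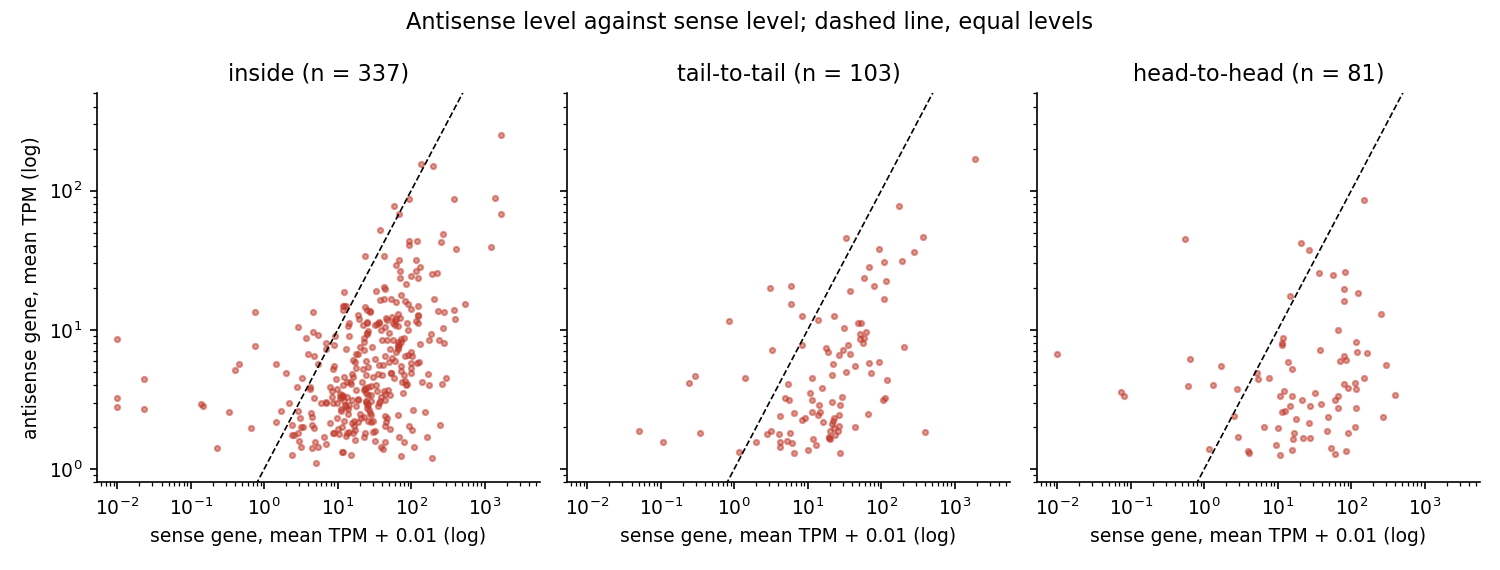
Mean TPM over 3 libraries of each antisense gene (vertical, log axis) against that of its sense gene (horizontal, log axis, with a small constant added) for 337 inside, 103 tail-to-tail and 81 head-to-head pairs. Most points lie right of the dashed line of equal levels, with the clouds tilted upwards in the first 2 panels.

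The level of the sense gene, which the rule did not use, was high in most pairs. Of 504 sense genes, 466 or 92.5% were themselves detected, against 41.1% of all protein-coding genes. Counted by antisense gene, 93.0% of 540 members had a detected partner, against 33.5% of 2437 antisense genes that were not detected. The median over the sense genes of members was 22.9 ± 0.992 TPM (SD, n = 3). Seen from the sense gene, the share of antisense genes detected was 1.15% where the partner had under 0.1 TPM (13 of 1130 genes, 95% Wilson interval 0.674 to 1.96%). It was 22.8% at 3 to 10 TPM, 42.1% at 10 to 30, 56.0% at 30 to 100 and 71.3% at 100 TPM and over (82 of 115, interval 62.5 to 78.8%). The intervals cover counting of genes only. Of the distinct sense genes of the 196 members with no exon base opposite any exon, 94.2% were detected.

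**Figure D3:**
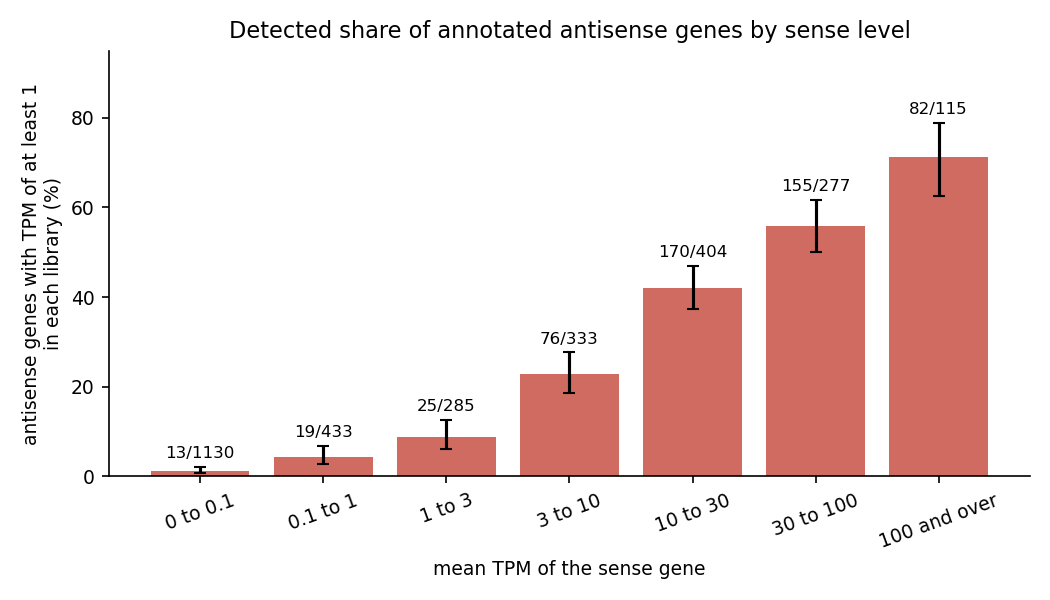
Share of annotated antisense genes with at least 1 TPM in each library (bars, percent) by the mean TPM of the sense gene, with 95% Wilson intervals and counts. The share goes up at each step, 1.15% at the left and 71.3% at the right.

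Antisense genes inside introns were set beside genes of type sense intronic, which lie in introns on the same strand as their host. With a host at 10 to 100 TPM, 60.6% of 170 antisense genes without exon overlap were detected, and 75.9% of 116 sense intronic genes. With a host at 1 to 10 TPM the shares were 23.0% of 148 and 32.2% of 59, and with a host at 100 TPM or more 65.5% of 29 and 66.7% of 15. Under 1 TPM of the host they were 1.48% of 472 and 0.820% of 122. On either strand, few genes were detected with a host under 1 TPM and most were with a host of 10 TPM or more. How much of it is unspliced host RNA was not tested.

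The authors' gene table gives a posterior standard deviation for each count, which measures how firmly reads could be assigned among the annotated genes. It does not measure whether reads of unspliced partner RNA fall on an antisense exon inside an intron, which was not tested. Over members with no exon base opposite another exon its median was 0 (n = 196, highest 24.8%). It was also 0 at over 0 to 10% overlap (n = 87), and it was 0.427% of the mean count at over 10 to 25% overlap (n = 133), 2.16% at over 25 to 50% (n = 92), 5.84% at over 50 to 75% (n = 30) and 15.6% above that (n = 14). The 4 medians above 0 were 0.416%, 2.15%, 5.67% and 15.6% when the 20 members that also overlap an exon on their own strand were left out. 6 members lie wholly opposite exons, among them Gm15655, opposite the transcription factor gene Maf, and CR974462.3, opposite Brd2. Gm15655 had 6.69, 19.3 and 32.8 TPM with a posterior SD of 23.8%, and CR974462.3 8.80, 9.70 and 5.56 TPM with 25.6%. Slfn5os, of which a stretch is printed above, had 6.94, 3.26 and 1.09 TPM with 33.8% and as few as 4.94 counts, against 159.6, 89.7 and 95.7 TPM for the interferon-induced gene Slfn5. For Gm28913, Gm47009 and Gm26626, also printed above, it was 0.

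**Figure D4:**
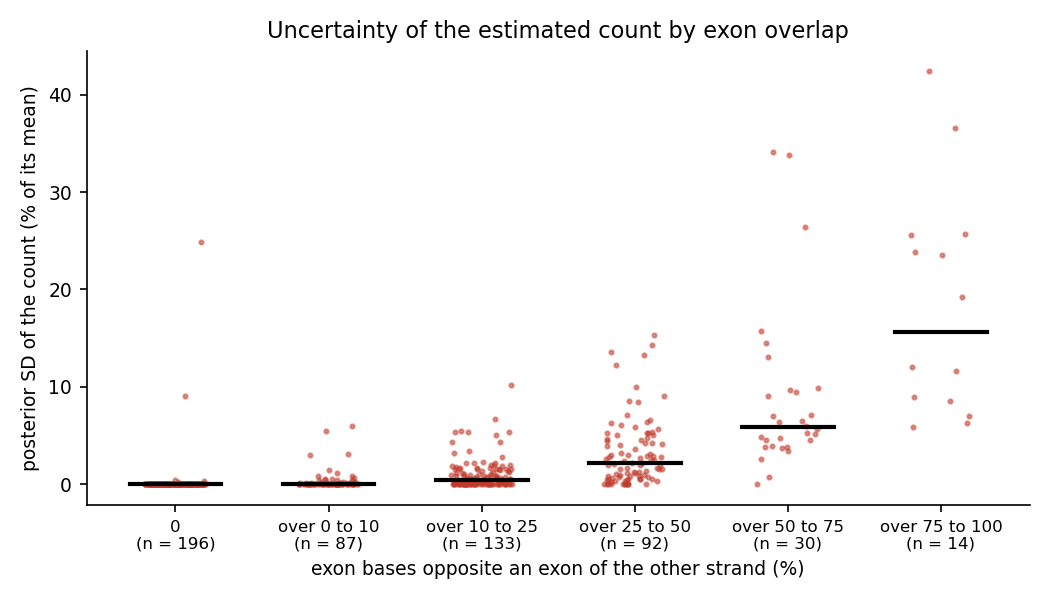
Posterior SD of the expected count as a percent of its mean (vertical; mean over 3 libraries) for each of 552 members by the percent of its exon bases opposite an exon of the other strand; bars are medians. The median is 0 at the left and 15.6% at the right.

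The further transcript table gave other levels for many members. Over all 552, Spearman's rho between the tables was 0.714, 173 members were over 2-fold higher on the TPM + 1 scale in the further table and 6 over 2-fold lower. Of 57 members with fewer than 500 exonic bases 40 were over 2-fold higher, against 133 of 495 longer members. Means there were 661 TPM for Gm28913, 67.5 for Adap2os, 80.6 for Gm43569 and 20.2 for Slfn5os. These 4 were singled out after their values were seen. Of 14 members with over 75% of exon bases opposite exons, 8 had a lower mean there than in the gene table. Gm26716, opposite Sdc3, and Gm17139, opposite Arel1, were at or near 0 in every library of the further table, and in the gene table they averaged 16.5 ± 4.39 and 11.2 ± 0.981 TPM. CR974462.3 had 1.62 TPM, Gm44709 1.08 and Gm15655 8.87. Gm47106, wholly opposite Mrpl3, was higher, with 769, 6.09 and 54.7 TPM in replicates 1, 2 and 3, against 2.16, 1.98 and 1.52 TPM in the gene table. Members opposite listed genes also differed, with 109 TPM for Gm43964, 85.4 for Gm31172, 46.8 for Gm16174, 16.9 for Gm15346 and 17.2 for Gm26626, so the levels of these genes given next hold for the gene table alone.

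Members opposite genes of pathways that lipid A is known to engage were taken from lists of sense genes. Of 40 listed genes of NF-kB and Toll-like receptor signalling, all detected, 5 have an annotated antisense gene, and 6 of their 7 antisense genes were members, all lower than the sense gene in each library. Over the whole annotation 17.9% of antisense genes were members, or 38.1% of the 1318 whose sense gene was detected, and 82.8% of all pairs had the higher level in the sense gene in each library. The 6 log2 differences had a median of -3.47 against -2.05 over all pairs, without matching for the level of the sense gene. Besides the pair inside Ikbke, Gm43964 had 23.6, 10.7 and 6.87 TPM, against 269, 209.8 and 216 TPM for Irak2, a kinase that passes on the receptor signal. Gm47009 had 13.2, 10.8 and 11.1 TPM, against 61.3, 57.7 and 60.4 TPM for Irak3, a kinase-like inhibitor of the same pathway. Neither gene of that pair varied much between libraries. Gm16174 had 4.17, 4.71 and 5.38 TPM, against 31.7, 35.0 and 52.7 TPM for the nuclear IkB protein gene Bcl3, and Gm15346 4.09, 2.10 and 5.82 TPM, against 201, 137 and 184 TPM for the IkB kinase gene Ikbkb. Gm43964, Gm16174 and Gm15346 had as few as 8, 9 and 9 expected counts in a library.

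For the interferon response, 7 of 10 antisense genes at 8 of 45 listed genes, all detected, were members. The share was 17.9% of all antisense genes and 38.1% of those with a detected sense gene. It went up with the level of the sense gene, which was matched neither here nor in the difference given next. In the gene table all 7 were lower than the sense gene in each library, as were 82.8% of all pairs, and the median log2 difference was -3.69, against -2.05 over all pairs. For Gm16094 this order was not seen in the means of the further table. Beside Gm16094 these included a pair at Sp140, a relative of Sp110. There Gm17017 had 59.3, 22.9 and 25.8 TPM and Gm10552 20.5, 12.2 and 7.27 TPM, against 407, 201 and 221 TPM for Sp140, and all 3 were highest in replicate 1. Gm45479 had 30.4, 22.3 and 20.9 TPM and Gm31172 8.24, 8.32 and 4.31 TPM, against 135, 88.4 and 80.0 TPM for Irf2, a transcription factor that competes with Irf1. Gm13822 had 8.22, 3.89 and 4.73 TPM, against 432, 202 and 255 TPM for Oasl1, an interferon-stimulated gene, with a log2 difference of -5.47 ± 0.09. In 1 library each, Gm31172 rests on 6 counts and Gm13822 on 8. Dhx58os had 3.58, 3.33 and 2.47 TPM, against 117, 102 and 99.0 TPM for Dhx58, which encodes the RNA sensor LGP2.

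For transcription and chromatin genes, 7 of 12 antisense genes at 11 of 38 listed genes were members. This stood against 17.9% of all antisense genes and 38.1% of those with a detected sense gene. Without matching for the level of the sense gene, the median log2 difference was -3.29, against -2.05 over all pairs. Beside Zeb2os, Gm15655 and CR974462.3 these were Gm26626, with 4.36, 4.10 and 3.53 TPM, against 109, 63.5 and 82.3 TPM for Runx1, a regulator of blood cell development, and Gm15283, with 4.31, 1.60 and 2.46 TPM, against 43.7, 23.1 and 40.3 TPM for Hif1a, the hypoxia factor. Kdm6bos had 3.37, 2.11 and 3.94 TPM, against 14.8, 21.2 and 21.5 TPM for Kdm6b, which encodes a histone demethylase. Junos had 2.83, 1.15 and 1.95 TPM, against 8.61, 13.6 and 7.91 TPM for the AP-1 gene Jun. In the list of cytokines, chemokines and receptors, 1 of 6 antisense genes was a member, against the same 17.9%. This was 1700019L13Rik inside the chemokine receptor gene Cx3cr1, with 3.07, 2.50 and 2.52 TPM, against 0, 0.02 and 0.02 TPM for Cx3cr1, and it was the member of these lists that lay above its sense gene. By the further table, means were 3.48 TPM for 1700019L13Rik and 2.43 TPM for Cx3cr1.

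The symbols of 46 members name their sense gene. In 3 of these pairs, or 6.52%, the antisense gene was higher in each library, and in 40, or 87.0%, the sense gene was, against 10.4% and 82.8% of all pairs. A mean under 5 TPM was seen for 33 of the 46, or 71.7%, against 55.6% of all members. The 3 antisense genes above their sense gene were Brip1os, with 12.5, 6.82 and 8.40 TPM, against 0.67, 0.57 and 0.6 TPM for the DNA helicase gene Brip1, Mypopos, with 8.26, 8.60 and 9.30 TPM, against 3.70, 3.77 and 3.74 TPM for the Myb-related gene Mypop, and Rab26os, with 4.73, 5.49 and 6.70 TPM, against 1.49, 1.42 and 1.34 TPM for the vesicle GTPase gene Rab26. Brip1os has 1312 exon bases opposite an exon, none of them opposite Brip1. The order differed between libraries for Runx2os2 (2.59 ± 1.44 TPM, SD, n = 3), Nr6a1os (2.07 ± 0.913) and Faddos (1.32 ± 0.176), against 2.89 ± 0.476 for Runx2, 2.37 ± 0.834 for Nr6a1 and 1.14 ± 0.0651 for Fadd.

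Among partners of transcription or chromatin regulators, Zmiz1os1 had 18.5, 29.6 and 29.8 TPM, against 83.3, 91.3 and 73.1 TPM for Zmiz1, a coregulator gene, and was lowest in replicate 1. Aknaos had 36.2, 21.2 and 18.2 TPM, against 193, 194 and 189.6 TPM for Akna. Dnmt3aos had 4.84, 5.26 and 4.04 TPM, against 82.4, 90.6 and 69.1 TPM for the DNA methyltransferase gene Dnmt3a, and the log2 difference of -3.83 ± 0.04 was steady. Means of 2.14 ± 0.489 TPM for Sp3os, 3.14 ± 0.434 for Zbtb11os1 and 3.70 ± 0.862 for Sap30bpos stood against 26.6 ± 4.05 TPM for Sp3, 21.6 ± 2.75 for Zbtb11 and 22.7 ± 9.44 for Sap30bp (SD, n = 3 each). Opposite genes of small GTPases and their regulators, Rab10os had 23.1, 15.5 and 18.03 TPM, against 45.9, 32.6 and 35.8 TPM for Rab10. Adap2os had 19.2, 13.8 and 11.9 TPM, against 139.8, 125 and 105 TPM for Adap2. Lower means were those of Arhgap15os (2.34 ± 1.01 TPM), Arhgap27os3 (3.40 ± 1.46), Tbc1d22bos (2.34 ± 0.219) and Arf4os (1.40 ± 0.231), against 46.4 ± 9.98 for Arhgap15, 11.5 ± 6.83 for Arhgap27, 3.09 ± 0.57 for Tbc1d22b and 53.7 ± 22.8 for Arf4.

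Ube4b, which encodes a ubiquitin chain assembly factor, holds 3 named members: Ube4bos1 with 3.94 ± 0.877 TPM, Ube4bos2 with 3.10 ± 2.14 and Ube4bos3 with 2.43 ± 0.905, against 28.1 ± 11.4 for Ube4b. Rptoros had 3.09 ± 0.951 TPM, against 38.1 ± 5.82 for Rptor, the gene of the mTORC1 scaffold, and Rbm3os 2.76 ± 0.409, against 118 ± 13.5 for the cold-inducible RNA-binding protein gene Rbm3. Alkbh3os1 had 1.30 ± 0.199 TPM, against 27.7 ± 3.54 for the DNA repair gene Alkbh3, and Fbxl12os 1.44 ± 0.179, against 20.6 ± 3.52 for Fbxl12. Peak1os had 37.4, 9.40 and 9.83 TPM, against 39.7, 29.4 and 29.98 TPM for the kinase-like gene Peak1, and Tmcc3os 24.5, 12.0 and 13.6 TPM, against 175, 77.4 and 73.2 TPM for Tmcc3. Both antisense genes were highest in replicate 1. Uckl1os had 9.99 ± 0.908 TPM against 65.3 ± 12.1 for Uckl1, Atxn7l1os1 7.81 ± 2.44 and Atxn7l1os2 5.75 ± 3.06 against 67.5 ± 29.3 for Atxn7l1, and Man2c1os 3.11 ± 0.678 against 60.8 ± 12.3 for Man2c1. The others, Bcas3os1, Anxa11os, Phtf1os, Ccdc142os, Lrrc75aos1, Lrrc75aos2, Galnt6os, Far1os, Scpep1os and N4bp2os, had means between 1.49 and 3.72 TPM, each below the sense gene in every library.

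Start regions are shown for 5 members that overlap or face their sense gene at the 5′ end. They were picked without a set rule and do not stand for all such members. The sequences below are the bases upstream of the sense gene's start on its own strand, from RefSeq on GRCm38.p6, with CG dinucleotides in capitals. For Brip1 and Lig3 they are the bases between both start sites, 177 and 67 bases apart. For Sp110, with its partner's start 476 bases upstream, and for Oasl1 and Znfx1, whose partners start downstream of their own start, they are the 250 bases upstream. Brip1 (chr11:86201194-86201369, partner Brip1os), Sp110 (chr1:85598811-85599060, partner Gm16094) and Znfx1 (chr2:167063016-167063265, partner Zfas1) are on the minus strand, and Lig3 (chr11:82781043-82781108, partner Gm11423) and Oasl1 (chr5:114922990-114923239, partner Gm13822) on the plus strand.
Brip1: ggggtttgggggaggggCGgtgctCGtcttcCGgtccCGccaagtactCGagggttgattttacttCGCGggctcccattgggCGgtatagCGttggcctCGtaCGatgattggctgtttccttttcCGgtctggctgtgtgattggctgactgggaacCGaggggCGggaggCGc
Lig3: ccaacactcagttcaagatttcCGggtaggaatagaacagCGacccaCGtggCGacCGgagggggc
Sp110: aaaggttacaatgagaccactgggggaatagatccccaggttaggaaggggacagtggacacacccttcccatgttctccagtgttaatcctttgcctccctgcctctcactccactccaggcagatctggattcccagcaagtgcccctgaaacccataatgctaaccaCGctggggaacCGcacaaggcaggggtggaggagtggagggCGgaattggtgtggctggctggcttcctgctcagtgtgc
Oasl1: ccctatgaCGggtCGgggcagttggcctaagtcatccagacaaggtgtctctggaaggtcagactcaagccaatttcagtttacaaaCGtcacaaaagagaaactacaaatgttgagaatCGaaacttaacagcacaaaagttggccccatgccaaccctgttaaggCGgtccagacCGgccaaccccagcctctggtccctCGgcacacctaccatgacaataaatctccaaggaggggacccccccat
Znfx1: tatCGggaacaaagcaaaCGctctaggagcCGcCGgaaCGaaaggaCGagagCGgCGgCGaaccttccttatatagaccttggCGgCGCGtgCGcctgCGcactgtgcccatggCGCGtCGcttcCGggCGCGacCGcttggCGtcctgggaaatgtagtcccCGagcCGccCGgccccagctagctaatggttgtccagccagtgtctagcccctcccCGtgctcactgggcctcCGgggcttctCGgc
They hold 15 CG dinucleotides at Brip1, 5 at Lig3, 3 at Sp110, 7 at Oasl1 and 28 at Znfx1. Gm11423 had 1.97, 2.53 and 1.92 TPM, against 5.91, 6.82 and 6.51 TPM for the DNA ligase gene Lig3. The interferon response element core (GAAA, any 2 bases, GAAA), searched on both strands, matched once between Brip1 and Brip1os, as TTTCCTTTTC, and in 2.98% of all 32851 RefSeq windows of 250 bases. It did not match in the other 4 windows, nor did the AP-1 motif TGANTCA, the NF-kB motif (GGGA, any 2 bases, TTCC), the TATA box TATAAA or the ETS core GAGGAAGT in any of the 5. The windows of Brip1 and Lig3 were shorter, with 176 and 66 bases. These are matches of letters only.

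A RefSeq start within 100 bases of the annotated one was found for 122 members. In the 250 bases before it the median number of CG dinucleotides was 7 over these members, 17 over 409 sense genes and 6 over all windows. It was 12.5 over 22 head-to-head members, 15 over 35 tail-to-tail members and 3 over 61 members inside a sense gene. The interferon element core was in 3 of the 122 windows or 2.46%, the AP-1 motif in 8 or 6.56% against 6.75% of all windows, the NF-kB motif in 1 or 0.820% against 1.21%, the ETS core in 2 or 1.64% against 2.44%, and the TATA box in 7 or 5.74% against 12.4% of all windows. In the same order, the shares over the 409 sense genes were 2.93%, 3.42%, 0.733%, 2.69% and 5.62%. For the TATA box, members and sense genes were thus alike.

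Members varied between libraries in a common direction. Replicate 1 held the highest TPM of the 3 libraries for 347 of 552 members, or 62.9%, against 44.6% of all detected genes and 38.3% of detected protein-coding genes. The median difference of log2(TPM + 1) between replicate 1 and the mean of replicates 2 and 3 was 0.32 over members, 0.40 over detected lincRNA genes and -0.01 over detected protein-coding genes. Replicate 1 also had the most starting RNA, 1 µg, and the fewest counts. Its share of TPM in small RNA types (small nuclear, nucleolar, ribosomal and others) was the largest, 45.8% against 37.3% and 35.7% in replicates 2 and 3. The part of these in the shift was not tested. Across 502 pairs with a detected sense gene the shift of the member and that of its sense gene had a Spearman's rho of 0.501. By class, rho was 0.652 over 95 tail-to-tail, 0.513 over 322 inside and 0.236 over 74 head-to-head pairs. These are correlations across genes of the same 3 libraries, which share depth and scaling.

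**Figure D5:**
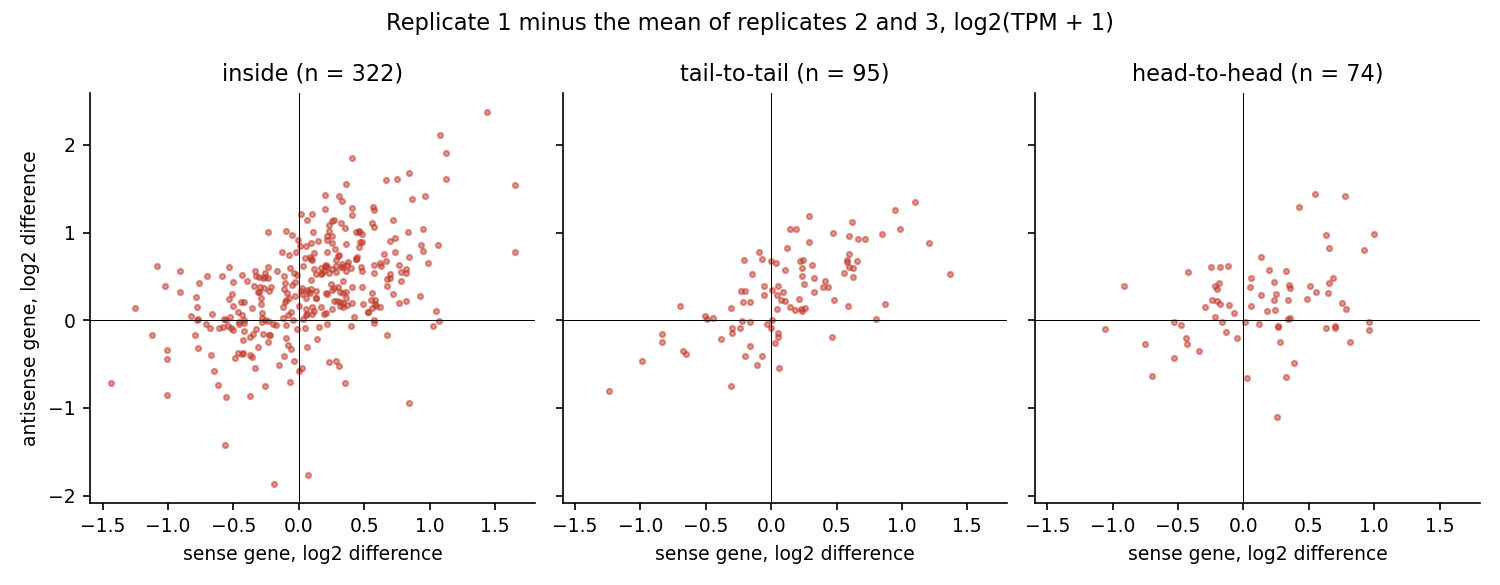
Difference of log2(TPM + 1) between replicate 1 and the mean of replicates 2 and 3 for the antisense gene (vertical) against the same for its sense gene (horizontal), for pairs with a detected sense gene. Most points lie above 0, and the cloud is tilted most in the tail-to-tail panel.

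The median SD of log2(TPM + 1) over 3 libraries was 0.309 for members and 0.272 for all detected genes. It was 0.199 over 96 members and 0.188 over 915 detected genes at 1 to 2 TPM. At 2 to 5 TPM it was 0.304 over 211 members and 0.288 over 2858 genes. At 5 to 20 TPM it was 0.361 over 190 members and 0.286 over 4539 genes. At 20 TPM and over it was 0.50 over 55 members and 0.270 over 3571 genes. Without replicate 1 it was 0.172 over all members. The 5 largest spreads were those of Gm47118, inside the endothelin gene Edn1, with 16.9, 2.38 and 2.51 TPM, Gm43569, inside Fnbp1l, with 22.1, 3.94 and 4.83 TPM, 1700099I09Rik, inside the kinase gene Mast4, with 27.5, 8.93 and 4.83 TPM, Gm44709, inside the elongation factor gene Supt5, with 3.07, 17.1 and 11.2 TPM, and Gm15655. Edn1 had 12.6, 3.07 and 5.17 TPM, highest in replicate 1 like Gm47118. Gm44709 and Gm15655, both nearly or wholly opposite exons, were lowest in replicate 1, while Supt5 with 40.6, 47.3 and 45.8 TPM and Maf with 46.2, 44.1 and 43.9 TPM varied little. The smallest spreads were those of 4930513N10Rik with 1.38, 1.35 and 1.34 TPM, 4930537H20Rik with 1.69, 1.65 and 1.67 TPM and Gm37850 with 16.6, 16.4 and 16.8 TPM, against 97.9, 65.9 and 88.1 TPM for Cnot1, 25.5, 17.4 and 22.8 TPM for Gatad2b and 266, 169.5 and 187 TPM for Rbm5.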

How the data were processed

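RNA of the chromatin fraction was sequenced as ribosome-depleted total RNA in 3 libraries of 1 group. Per the file headers and the text deposited with each sample, the authors' gene table holds expected counts (estimated, need not be whole), TPM relative to all features of a library, and a posterior mean and standard deviation of each count. The same text names assembly mm10 and GENCODE M21. Aligner and quantifier names were not given in the sources used here. Strand use was likewise unstated. A further transcript table deposited by the authors gives estimated counts and TPM, and its gene sums were the alternative level. Rows that are no annotated gene held 1.34%, 0.292% and 0.416% of expected counts in replicates 1, 2 and 3. Where a gene has a count of 0, up to 3 counts are allowed by counting error alone, which is 0.240, 0.138 and 0.178 CPM of annotated genes.

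Differences are of log2(TPM + 1) within a library, given as mean ± SD, and understate differences of low genes. Named genes were the members whose symbol names a sense gene, the 15 highest and 3 lowest, those with the 5 largest and 3 smallest spreads, the 5 highest and 5 lowest differences, those opposite listed genes, and 3 on each side of the limit. Some others, such as Gm11423 opposite Lig3, were named outside these rules. A locus that holds several members is not reported here. The members and lists were chosen with earlier results of these data known. Expected counts were rounded for edgeR 4.0.16 and DESeq2 1.42.0 in R 4.3.3, which gave alternative spreads and were tested on simulated data. edgeR's intercept-only fit gave a median biological coefficient of variation of 26.4% for members and 24.6% for detected genes. Other steps used Python 3.11.15, numpy 2.4.6, pandas 2.3.3, SciPy 1.17.1 and matplotlib 3.10.9.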

Additional observations from a re-analysis of the deposited data

How the results depend on the processing

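No paired analysis was possible because the libraries form 1 group. Of 65 alternative values, 45 stayed within the spread between libraries, the 95% interval or 1.5 times a count. Leaving out a library could not move the level, the share or the log2 difference beyond the spread between libraries. Those values are among the 45 by construction. For the SD of log2(TPM + 1), the limit was the SD of its own values with each library left out. The log2 difference, the only measure that could change sign, stayed negative in each alternative. Against 552 members, 194 were found at 5 TPM and 1207 in the further transcript table, which held 533 of the 552. The median member level of 4.32 TPM was 8.51 in that table, 7.45 with TPM rescaled to genes other than small and mitochondrial RNA, 12.4 for members at 5 TPM or more and 2.92 at 0.5 TPM. Their share of TPM, 0.562%, was 1.14% in the other table and 0.972% rescaled. The median antisense minus sense log2 difference of -2.05 was -1.76 in the other table, -1.65 at 5 TPM, -2.28 with a pseudocount of 0.1, -1.70 for pairs without a common exon base and -2.45 for pairs named by symbol. Members above their sense gene numbered 25 at 5 TPM and 27 without a common exon base, against 56. Detected sense genes made up 94.8% in the other table, 95.4% at 5 TPM and 89.5% at 0.5 TPM, against 92.5%. The median spread of 0.309 was 0.389 with a pseudocount of 0.1.

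Leaving out each library in turn gave 593 to 597 members, a level of 3.85 to 4.61 TPM, a share of 0.470 to 0.621%, a difference of -2.12 to -2.01, 57 to 64 members above the sense gene, 92.7 to 93.1% of sense genes and a spread of 0.172 to 0.306, lowest without replicate 1. Of the positions, 3 counts were recomputed, and all stayed within 1.5 times. With start-site distances of 0.5 kb and 5 kb, divergent members numbered 3 and 6, against 4. Members without an opposite gene numbered 13 and 10, against 12. Partners were assigned by overlap before distance, so the distance could not change the 337 members inside a sense gene. With protein-coding partners only, the counts were 4 divergent, 14 without an opposite gene and 336 inside. The share for members without an opposite exon base was chosen after seeing the data. With 10 expected counts also required in each library, 483 members were left. The causes were not tested.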

Other observations

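Some loci held several members, and those named here were chosen after their values were seen. Lrmda holds Gm7480, 4930405A10Rik with 43.8 ± 21.2 TPM and Gm10248 with 5.85 ± 1.72 (SD, n = 3 each). Ano6, App, Ube4b and Zbtb20 are among the other loci with several members and hold 3 each. In App, the gene of the amyloid precursor protein, Gm49227 had 8.22 ± 4.04 TPM, Gm10791 5.48 ± 1.69 and Gm49226 5.05 ± 1.30, against 72.7 TPM for App. In all, 65 members share a sense gene with another member.

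The 12 members with no opposite-strand gene within 1 kb were led by F630028O10Rik with 53.7, 31.6 and 26.6 TPM in replicates 1, 2 and 3 and Gm15445 with 46.3, 27.2 and 34.8 TPM. Their median of 5.05 TPM lay near that of 4.79 TPM for members inside a sense gene. Genes whose exons, merged over all transcripts, form 1 block made up 11.8% of the 552 members. They made up 6.04% of 2532 antisense genes that were not detected. Such genes can still have spliced transcripts. The median exonic length was 1335 bases for members and 897 bases for those not detected.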
